A study of Mus with 50 samples.

Results

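B4galnt1 parted the livers of this backcross into a low and a high set, and of 22179 other genes 1, Tafa2, also passed the test between the sets. The low set held the 20 of 50 livers (40.0%) whose B4galnt1 signal lay under 4.9 on the log2 scale, and the high set held the other 30. The groups were therefore chosen by the B4galnt1 signal itself, which is described here with no test, and the tests below are of the differences of other genes between the sets. All the mice were females of a C57 x FVB backcross that carried MMTV-Neu, a proto-oncogene under a viral promoter active mainly in mammary tissue, and all had breast cancer as their stated comorbidity. The labels name no second group, no treatment and no age for a mouse, and give no genotype at B4galnt1. The mice were picked for extreme values on a multivariate score of ageing, but which liver lay at which extreme was not analysed here.

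B4galnt1 encodes the GM2 and GD2 synthase, a Golgi enzyme that adds N-acetylgalactosamine to the simple gangliosides GM3 and GD3. Gangliosides are glycosphingolipids that carry sialic acid; they are built stepwise from ceramide in the Golgi, sit in the outer leaflet of the plasma membrane and are broken down in lysosomes. The step at B4galnt1 opens the route from the simple gangliosides to the complex ones. In a backcross, genes that lie near each other on a chromosome tend to be inherited together, so the neighbours of B4galnt1 on chromosome 10 were examined next to the glycolipid genes.

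In B4galnt1-low livers the B4galnt1 signal had a lowest value of 3.08, a median of 3.52 and a highest value of 4.896, against 5.67, 6.28 and 6.60 in B4galnt1-high livers. The mean was 3.66 ± 0.50 in low livers and 6.20 ± 0.29 in high livers (SD, n = 20 and 30), a difference of −2.54 log2 in signal. The low set's mean lies close to 3.65, the median over genes of their mean level, and the files give no measure of detection, so the difference is one of signal and gives no fold of B4galnt1 RNA. The sets do not overlap by construction. The liver just under the boundary was animal 235 at 4.896, with animal 117 at 4.72 and animal 231 at 4.17 below it. Just above it were animals 64, 84 and 10 at 5.667, 5.74 and 5.75. The interval between animals 235 and 64, 0.77 log2, was the widest between neighbouring values in the middle 80% of livers. B4galnt1 is read by 1 probe set on the array, so the split rests on that probe set alone.

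**Figure D1:**
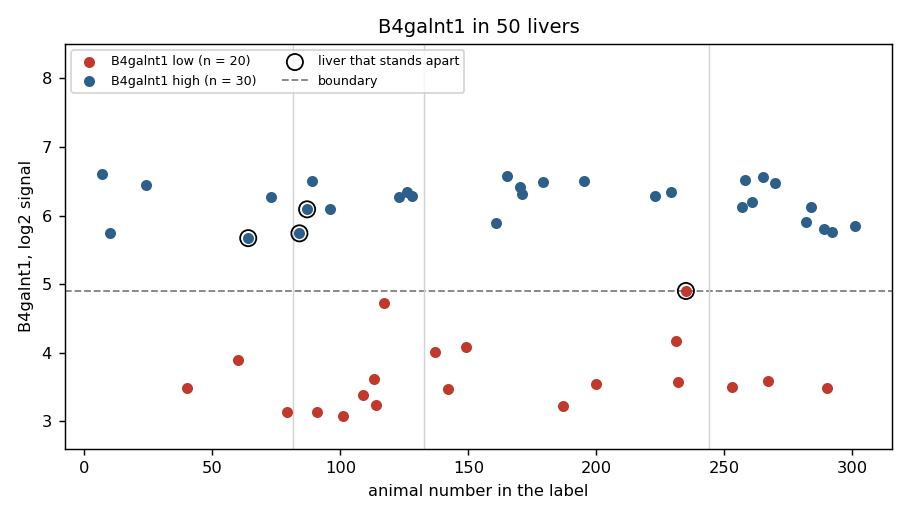
B4galnt1 log2 signal (vertical axis) of each liver against the animal number in its label (horizontal axis). Red points are the 20 low livers and blue points the 30 high livers, the dashed line is the boundary at 4.9, grey vertical lines part 4 stretches of animal numbers, and rings mark the 4 livers that stand apart; both sets occur in every stretch.

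Both sets occurred along the whole run of animal numbers. Low and high livers numbered 3 and 5 among animals 7 to 79, 6 and 7 among animals 84 to 128, 8 and 8 among animals 137 to 235, and 3 and 10 among animals 253 to 301. The difference in B4galnt1 within these stretches was −2.65, −2.66, −2.48 and −2.60 log2. The stretches were taken from an earlier look at these data, and the labels do not call them batches. Array medians lay between 3.27 and 3.34, and precision is limited by how many arrays there are. Measured against the other livers, 4 stand apart: animal 235 in the low set and animals 64, 84 and 87 in the high set. Animal 235 has the highest B4galnt1 signal of the low set, and animals 64 and 84 have the lowest of the high set. Without the 4, B4galnt1 averaged 3.60 ± 0.42 in low livers and 6.25 ± 0.27 in high livers (SD, n = 19 and 27).

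Of the 22179 other genes, 1 differed between B4galnt1-low and B4galnt1-high livers at an adjusted p under 0.05 (0.00451% of genes tested, limma with Benjamini-Hochberg adjustment). No gene was higher in low livers by this test, and 1 was lower. At an unadjusted p under 0.05 by limma the counts were 874 genes higher and 564 lower in low livers, together 6.48% of genes tested. That count was 2490 (11.2%) without animal 235 and 2061 (9.29%) without the 4 livers that stand apart, and the single call was the same gene in both cases. The 95% interval of the difference lay within 1 log2 of 0 for 99.4% of genes, and for none did it reach the size of the B4galnt1 difference. In units of the residual SD, B4galnt1 differed by −6.57, and the largest value among all other genes was 1.88. Both measures of B4galnt1 come from the values that formed the sets, so its lead over other genes is no test. No other gene separated the sets without overlap (0 of 22179, 0%).

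The gene that passed was Tafa2, which lies on chromosome 10 and encodes a small secreted protein related to chemokines that is made mainly in the nervous system. In low livers the Tafa2 signal had a lowest value of 2.78, a median of 2.96 and a highest value of 3.27, against 2.86, 3.55 and 4.17 in high livers. The low livers lay in a narrow band at the bottom, and the high livers reached from within that band to well above it. Tafa2 fell in low livers, with a mean of 2.98 ± 0.13 against 3.52 ± 0.35 in high livers (SD, n = 20 and 30), a difference of −0.54 ± 0.08 log2 (SE, limma adjusted p = 0.000415). The 95% interval ran from −0.70 to −0.37. Of the 30 high livers, 23 lay above every low liver, and 3 of the 20 low livers lay below every high liver. The signal is low, and the files give no measure of detection, so whether Tafa2 RNA was present in low livers cannot be told from these values.

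Within the 4 stretches of animal numbers, taken in rising order, the Tafa2 difference was −0.48, −0.45, −0.50 and −0.64 log2. Without the 4 livers that stand apart it was −0.60 (limma adjusted p = 2.04e-06). On ranks turned into normal scores it no longer passed (limma adjusted p = 0.098). The midpoint between the group means was 3.25. On the other side of it lay 1 low liver, animal 91, and 6 high livers, animals 10, 64, 84, 87, 161 and 282, of which 64, 84 and 87 stand apart from the other livers.

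**Figure D2:**
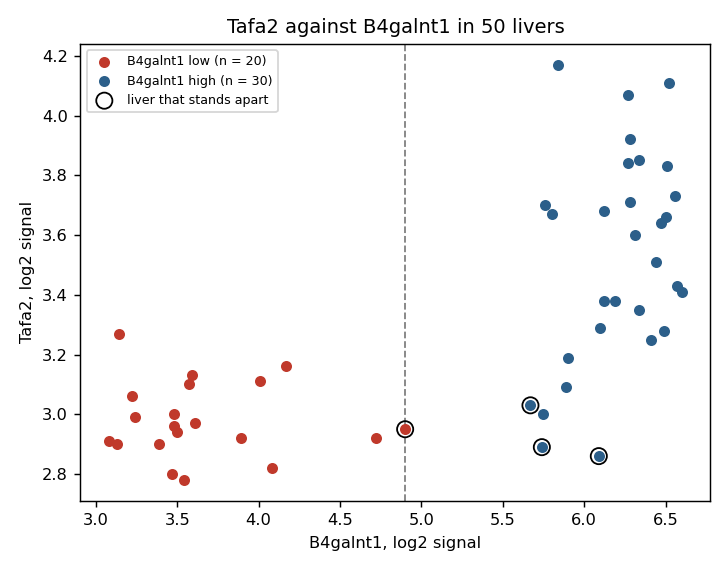
Tafa2 log2 signal (vertical axis) against B4galnt1 log2 signal (horizontal axis) in each of 50 livers, with low livers in red, high livers in blue, the boundary at 4.9 dashed and rings on the 4 livers that stand apart. Low livers stay between 2.78 and 3.27 in Tafa2, and high livers run from 2.86 to 4.17.

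Inside the sets the relation of Tafa2 to B4galnt1 is given as a description with no test, since the B4galnt1 values formed the sets and Tafa2 was taken up for its difference between them. Over the 30 high livers Pearson's r was 0.371 and Spearman's rho was 0.350. Without the 2 livers farthest from the B4galnt1 median r was 0.217, and without the 3 high livers that stand apart it was 0.189. Over the 20 low livers r was −0.072 and rho was 0.104, with r = 0.025 without the 2 farthest livers. The points of a set share the array, its normalisation and the RNA of the same liver.

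None of the 15 measured genes nearest to B4galnt1 on each side passed the test, and Tafa2, which passed, lies just beyond them. Whether Tafa2 was inherited together with B4galnt1 was not tested. B4galnt1 is the annotated gene number 2053 of 2271 on chromosome 10 in the RefSeq order of assembly GRCm38.p6, with 218 after it. Tafa2 lies 51 places before it, and 15 measured genes stand between them. Of the 15 measured genes nearest to B4galnt1 on each side, 0 of 30 were called by limma and 0 had an unadjusted p under 0.05, where 6.48% of all genes did. Their differences ran from −0.22 to 0.42 log2 with a median of 0.008, and all 95% intervals lay between −0.45 and 0.91. Low livers had the higher mean for 16 of the 30 and the lower mean for 14.

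The next gene along, Slc26a10, a member of the anion exchanger family, has an annotated span that overlaps the end of B4galnt1. Its signal had a lowest value of 4.57, a median of 5.33 and a highest value of 6.34 in low livers, against 4.08, 5.28 and 6.05 in high livers. The 2 ranges overlap from 4.57 to 6.05, with a difference of 0.13 ± 0.12 log2 (SE, limma adjusted p = 0.845). On the other side the nearest measured gene was Os9, a lectin of the endoplasmic reticulum that marks misfolded glycoproteins for degradation. Os9 medians were 8.40 in low livers and 8.57 in high livers, with a difference of −0.09 ± 0.09 (SE, limma adjusted p = 0.856).

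Other near genes on the side of Os9 include Cdk4, the cyclin D dependent kinase, at −0.14 ± 0.11 log2, and Tspan31, a tetraspanin, at 0.10 ± 0.10 (differences with SE). Cyp27b1, which makes the active form of vitamin D in the kidney, differed by 0.04 ± 0.04. On the side of Slc26a10, Ddit3, the stress transcription factor CHOP, differed by 0.02 ± 0.09, and Mars1, the methionyl-tRNA synthetase, by −0.07 ± 0.07. The largest difference among the 30 was 0.42 ± 0.24 for Inhbe, an activin subunit of the liver (limma adjusted p = 0.779). Its values ran from 5.90 to 8.09 in low livers and from 3.76 to 8.31 in high livers, so the high livers enclosed the low ones.

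**Figure D3:**
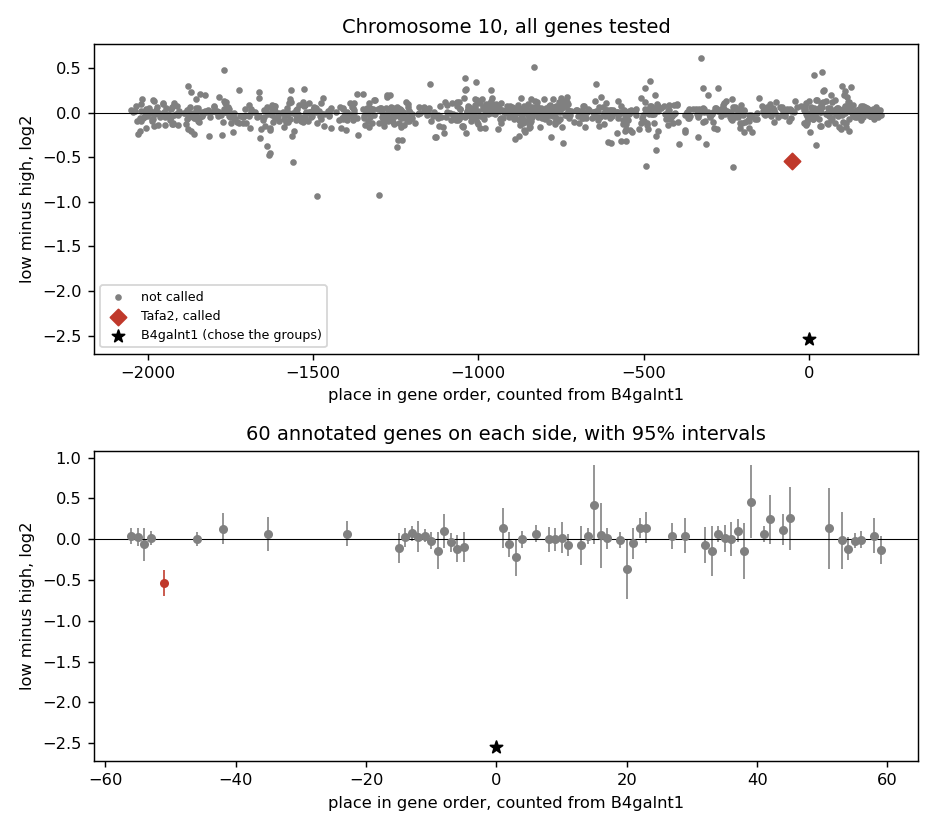
Difference between low and high livers in log2 (vertical axis) for genes of chromosome 10, placed by their order counted from B4galnt1 (horizontal axis), for all 1053 genes tested above and for 60 annotated genes on each side below, where bars are 95% intervals. The star is B4galnt1 at −2.54, which chose the groups, the red symbol is Tafa2 at −0.54, and the genes between them lie around 0.

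Along the whole of chromosome 10, 1 of 1053 genes was called (Tafa2), and the median absolute difference was 0.050 log2, against 0.046 on other chromosomes. An unadjusted p under 0.05 was found for 77 of them (7.31%). The other autosomes and the X chromosome had 5.22% to 8.39%, the highest on chromosome 13. Without animal 235 the share was 12.7% on chromosome 10, against 8.82% to 14.6% on the other autosomes and the X chromosome and 11.2% of all genes. Without the 4 livers that stand apart it was 11.6% on chromosome 10, against 7.4% to 11% on the others and 9.29% of all genes, and chromosome 10 then had the highest share. Genes within 25 places of B4galnt1 had 2 of 31 with an unadjusted p under 0.05 over all livers, where 6.48% of all genes did. The 2 were Ndufa4l2, a mitochondrial protein induced in hypoxia, at −0.37 ± 0.18, and Nxph4, a neurexophilin, at 0.14 ± 0.06 log2 (SE, limma adjusted p = 0.764 and 0.76).

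Of the 12 genes with the smallest p in the whole table, 5 lie on chromosome 10, which holds 4.75% of the genes tested, and all 5 had lower means in low livers. They are Tafa2, Mdm1, Ccdc59, Ntn4 and Nt5dc3, placed from 51 to 598 annotated genes before B4galnt1. This count was made after their values were seen, and it depends on the length of the list. Nt5dc3 and Mdm1 hold its last places (unadjusted limma p = 0.000231 and 0.000248), so a shorter list would hold fewer of the 5. Apart from Tafa2, none passed the test over all 50 livers. The stretch that holds these genes was not uniformly lower in low livers. Acss3, which lies between Ccdc59 and Mdm1, was higher in low livers by 0.61 ± 0.19 log2 (SE, limma adjusted p = 0.712). Without animal 235 its difference was 0.74 (unadjusted limma p = 6.23e-05). In that setting its p was smaller than those of Ccdc59, Ntn4 and Nt5dc3, and larger than those of Tafa2 and Mdm1. Ntn4, a secreted netrin of basement membranes, had a lowest value of 3.77, a median of 4.30 and a highest value of 5.39 in low livers, against 4.17, 4.904 and 6.52 in high livers. Its difference was −0.60 ± 0.14 log2 (SE, limma adjusted p = 0.354). The 2 ranges overlap from 4.17 to 5.39.

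Ccdc59, a nuclear protein that acts with the lung transcription factor TTF-1, ran from 4.19 over a median of 4.45 to 5.25 in low livers, against 4.31, 4.84 and 5.12 in high livers. The difference was −0.28 ± 0.07 log2 (SE, limma adjusted p = 0.449). Animal 267, a low liver, held the highest value of all, and without it Ccdc59 passed with −0.32 (limma adjusted p = 0.0434). Mdm1, a microtubule-binding protein of centrioles, differed by −0.22 ± 0.06 (SE, limma adjusted p = 0.459) and Nt5dc3, of a 5′-nucleotidase family, by −0.35 ± 0.09 (SE, limma adjusted p = 0.459). Within each of the 4 stretches of animal numbers the differences of Ntn4, Ccdc59, Mdm1 and Nt5dc3 were all negative, with the smallest at −0.11 for Ntn4 in animals 7 to 79. These genes were picked by their p over the same livers, so the shared sign is no separate test.

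By the standardised difference between the sets over 50 livers, the 10 genes whose pattern was most like that of B4galnt1, in either direction, were Tafa2 at −1.88, Tmem35b at 1.34, Mir34b at 1.30, Ntng1 at 1.26, Rnase2a at −1.21, Ntn4 at −1.20, Ccdc59 at −1.19, Olfr1087 at 1.14, Mdm1 at −1.14 and Mir465 at −1.14. Each of these is a difference in units of the residual SD, against −6.57 for B4galnt1, whose own values formed the sets. Apart from Tafa2 they did not pass, and the limma adjusted p of Tmem35b, a small membrane protein, was 0.266 with a difference of 0.33 ± 0.07 log2 (SE). Ntng1, Rnase2a, Olfr1087 and Mir465 differed by only 0.12, −0.16, 0.18 and −0.13 log2. Their group means ran from 1.98 to 2.51, under the 3.65 median over genes, and no measure of detection is given.

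No glycolipid gene passed the test between the sets. Of 96 genes in 4 sphingolipid lists, 90 were measured, and 0 were called by limma; the smallest adjusted p was 0.653. At an unadjusted p under 0.05 there were 4 higher and 1 lower in low livers, 5.56% of the 90 against 6.48% of all genes. Without animal 235 this count was 11 (12.2%, against 11.2% of all genes), and without the 4 livers that stand apart it was 9 (10%, against 9.29%). The median difference over the 90 genes was −0.006 log2, against −0.0002 over all genes tested.

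Among the 15 genes of ganglioside synthesis, all measured, 0 had an unadjusted p under 0.05 over all livers and the differences ran from −0.19 to 0.27 log2. Without the 4 livers that stand apart 1 had such a p and was lower in low livers, against 4% of all genes on that side. Without animal 235 there were 2, B4galt6 at −0.35 and St6galnac4 at −0.23, against 4.58%. Ugcg makes glucosylceramide, the first step of the route. Its signal had a lowest value of 5.11, a median of 6.18 and a highest value of 6.77 in low livers, against 5.25, 6.19 and 7.60 in high livers. The ranges overlap from 5.25 to 6.77, and the medians lie close together. The difference was −0.03 ± 0.12 (SE, limma adjusted p = 0.970), with a 95% interval from −0.27 to 0.21.

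St3gal5, the GM3 synthase, supplies the substrate of B4galnt1. Its signal ran from 8.60 over a median of 9.19 to 10.23 in low livers, against 8.13, 9.27 and 10.02 in high livers. The difference was −0.01 ± 0.13 log2 (SE, limma adjusted p = 0.995), with a 95% interval from −0.26 to 0.25. St8sia1, the GD3 synthase that competes with B4galnt1 for GM3, differed by −0.08 ± 0.07 (SE, limma adjusted p = 0.845), with medians of 2.80 in low livers and 2.79 in high livers.

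The enzymes that act after B4galnt1 did not pass either. B3galt4, which turns GM2 into GM1, differed by 0.07 ± 0.05 log2 (SE, limma adjusted p = 0.814) and had medians of 2.90 in low livers and 2.81 in high livers. St3gal2, which turns GM1 into GD1a, differed by −0.16 ± 0.10 (SE, limma adjusted p = 0.800), with medians of 3.51 in low livers and 3.68 in high livers. The medians of St8sia1, B3galt4 and St3gal2 lie near or under 3.65, the median over genes of their mean level. No measure of detection is given, so whether the RNA of these genes was present cannot be told from these values. B4galt5 and B4galt6, the lactosylceramide synthases ahead of St3gal5, differed by 0.27 ± 0.17 and −0.17 ± 0.20 (SE, limma adjusted p = 0.801 and 0.881). B4galnt2, an enzyme that adds the same sugar to other acceptors, differed by −0.22 ± 0.21 (SE, limma adjusted p = 0.852). The B4galnt2 medians were 2.73 in low livers and 2.70 in high livers, and 2 high livers, at 6.87 and 6.09, stood far above all others, of which the next had 3.16.

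**Figure D4:**
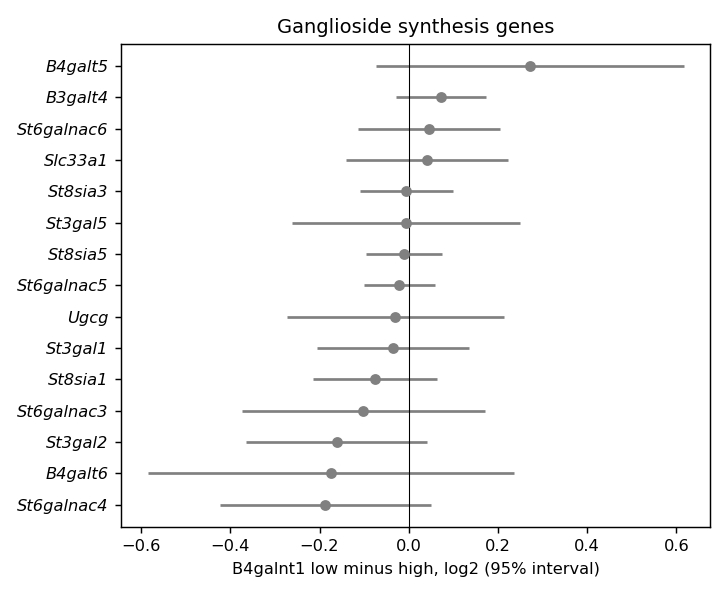
Difference between low and high livers in log2 (horizontal axis) for the 15 ganglioside synthesis genes other than B4galnt1 (vertical axis), with 95% intervals as bars. Every interval includes 0, and the differences run from −0.19 for St6galnac4 to 0.27 for B4galt5.

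The other glycosphingolipid synthesis genes had 0 of 25 at an unadjusted p under 0.05, where 6.48% of all genes did, with differences from −0.36 to 0.18 log2. In the ceramide and sphingomyelin list 1 of 23 measured genes had an unadjusted p under 0.05, Ormdl1, a brake on serine palmitoyltransferase, at 0.18 ± 0.07 (SE, limma adjusted p = 0.753). Among 27 measured genes of glycosphingolipid breakdown and lysosomal lipid export 4 had an unadjusted p under 0.05, with 3 higher and 1 lower in low livers. Of all genes 3.94% were higher and 2.54% lower at that p. Without the 4 livers that stand apart this list had 2 higher and 3 lower, against 5.29% and 4% of all genes. Npc1, the lysosomal cholesterol exporter, had medians of 8.89 in low livers and 8.60 in high livers, with a difference of 0.30 ± 0.09 (SE, limma adjusted p = 0.653). Sphk2, a sphingosine kinase, differed by 0.29 ± 0.09 (SE, limma adjusted p = 0.748). Acer2, a Golgi ceramidase, differed by −0.37 ± 0.15, and Sgpl1, the sphingosine phosphate lyase, by 0.17 ± 0.08 (SE, limma adjusted p = 0.753 and 0.760). None of these reached the adjusted threshold.

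Cell type markers were compared because a bulk liver sample cannot tell fewer cells of a type from less RNA per cell. Across the other 24 lists, which cover cell types and liver functions, 285 of 323 genes were measured and 0 were called by limma. An unadjusted p under 0.05 was found for 28 of them, 9.82% against 6.48% of all genes, for 56 without animal 235, 19.6% against 11.2%, and for 53 without the 4 livers that stand apart, 18.6% against 9.29%. Hepatocyte markers had a median difference of −0.005 log2 over 12 genes, and their mean level ran from 10.92 to 11.93 in low livers and from 10.21 to 11.99 in high livers. The livers thus carried the hepatocyte markers in both sets. Neural and Schwann cell markers, 10 measured, had a median difference of −0.015.

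Neutrophil markers had means that were lower in low livers for 11 of 12 genes, with a median difference of −0.248 log2 and 5 genes at an unadjusted p under 0.05, against 2.54% of all genes on that side. Without animal 235 there were 6, against 4.58% of all genes, and without the 4 livers that stand apart 4, against 4% of all genes. Their mean level ran from 3.34 to 4.24 in low livers and from 3.17 to 5.39 in high livers. The largest was S100a8, a calcium-binding protein of neutrophils, at −0.65 ± 0.27 (SE, limma adjusted p = 0.753). Stellate and fibroblast markers had lower means in low livers for 12 of 12 genes, with a median of −0.137 and 2 at an unadjusted p under 0.05, against 2.54% of all genes on that side. There were 2 without the 4 livers, against 4% of all genes, and 4 without animal 235, against 4.58%. Macrophage markers had a median of −0.006, which was −0.172 without the 4 livers that stand apart. Of all genes tested, 49.9% had higher means in low livers. Means were also lower for 5 of 5 erythroid, 7 of 7 adipocyte and 10 of 11 B and plasma cell markers. The same held for 9 of 10 cholangiocyte, 9 of 10 pancreatic acinar, 9 of 12 endothelial and 8 of 11 mammary markers. It held for 7 of 10 T and NK cell, 7 of 12 hepatocyte, 6 of 12 macrophage and 5 of 10 neural markers. The members of a list share the same livers, so their signs are no separate tests. Pancreatic acinar markers had a median mean level of 3.07 in low and 3.04 in high livers, but highest values of 8.12 and 10.6. For mammary markers the medians were 4.19 and 4.24, with highest values of 4.49 and 7.53. For erythroid markers the medians were 3.65 and 3.84, with highest values of 4.61 and 8.77. The part of these markers in the Tafa2 difference was not tested.

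Lipogenesis genes had higher means in low livers for 13 of 13 members, with a median difference of 0.378 log2, against −0.0002 over all genes. Of these, 4 had an unadjusted p under 0.05, where 3.94% of all genes did on that side, and none was called. The count was 5 without the 4 livers that stand apart (5.29% of all genes) and 9 without animal 235 (6.65% of all genes). Fasn, the fatty acid synthase, differed by 0.51 ± 0.24, and Pnpla3, a lipid droplet protein, by 0.86 ± 0.40 (SE, limma adjusted p = 0.760 for both). Without the 4 livers that stand apart the list median was 0.298, and without animal 235 it was 0.468. Cholesterol synthesis had a median of 0.217 with all livers and 0.022 without the 4. Cell cycle genes had a median of −0.230 with 13 of 13 lower in low livers and 1 at an unadjusted p under 0.05, against 2.54% of all genes on that side. That count was 7 without the 4 livers, against 4% of all genes, and 5 without animal 235, against 4.58%. Interferon response genes had a median of −0.174 with 14 of 15 lower in low livers and 3 at an unadjusted p under 0.05, which were 4 without the 4 livers and 5 without animal 235, against the same shares. In both lists 0 were called. The antioxidant enzymes and NRF2 targets, to which the title of the series points, had medians of 0.061 and −0.025 and 0 called.

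**Figure D5:**
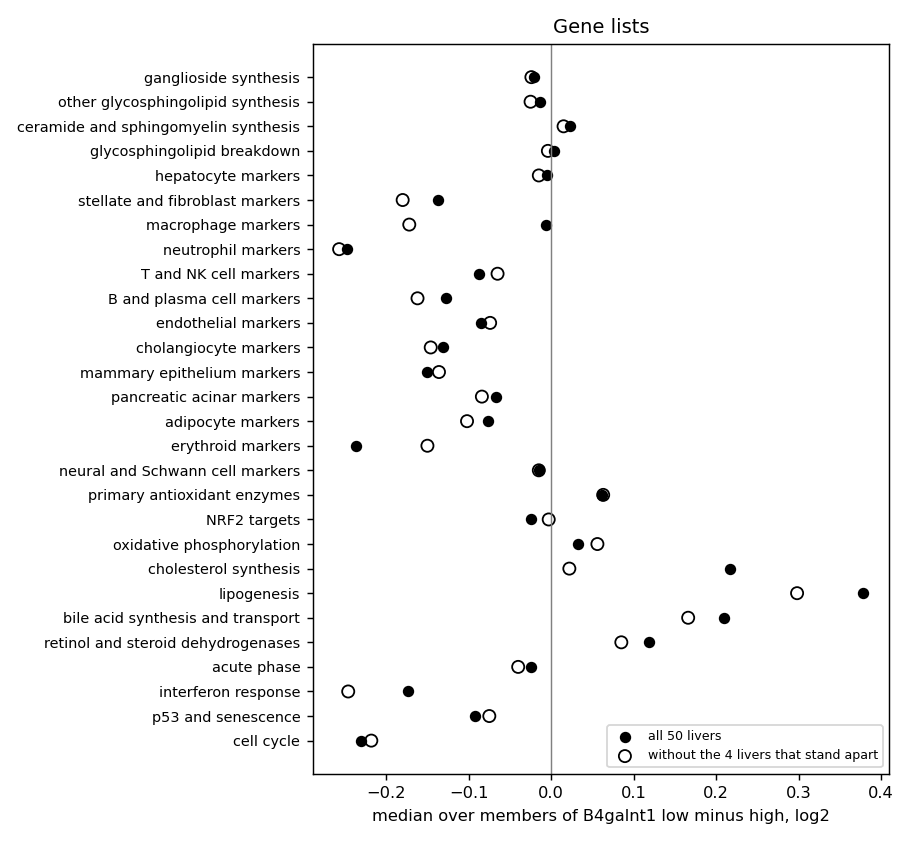
Median over the measured members of each gene list of the difference between low and high livers in log2 (horizontal axis), with filled points for all 50 livers and open points without the 4 livers that stand apart. Sphingolipid lists lie within 0.03 of 0, lipogenesis is at 0.378 and 0.298, and no member of any list was called.

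The values of 3 other genes also fall into separate clusters over these livers, and none of the 3 passed the test between the B4galnt1 sets. Serpina1d, an alpha-1 antitrypsin of the liver on chromosome 12, had medians of 11.65 in low livers and 11.57 in high livers and a difference of 0.03 ± 0.86 log2 (SE, limma adjusted p = 0.996). Its 95% interval, from −1.69 to 1.76, is wide, and its values ran from 4.51 to 12.12 in low livers and from 3.80 to 12.15 in high livers. Gm3893 differed by −0.06 ± 0.37 and 2610507I01Rik by 0.03 ± 0.33 (SE, limma adjusted p = 0.980 and 0.988).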

How the data were processed

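RNA from each liver was labelled with the WT Plus kit and measured on 1 array, per the labels' protocols, which speak of purified cells where the other labels name liver. Per the submitters' processing notes, the authors used RMA and Affymetrix Expression Console 1.4.1; the deposited values are on the log2 scale, from 1.45 to 13.54. A genome build is not given in the sources used here, so no coordinates are printed. Such values are normalised between arrays, so shifts in total RNA are removed.

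Of 41345 probe sets, 23521 carried 1 gene symbol, 1814 several and 16010 none. For each of 22180 genes the probe set with the highest median was kept. Gene order came from RefSeq (GRCm38.p6, 21994 genes placed). Low and high livers were compared with limma 3.58.1 in R 4.3.3 (lmFit, eBayes with trend, two-sided, Benjamini-Hochberg over 22179 genes, threshold 0.05, no level filter); intervals use the SE and 48 residual degrees of freedom. Each mouse is a separate animal by its number. A liver was taken to stand apart if its median correlation to all other livers, over genes whose mean level exceeds the 3.65 median, was under the lower quartile by over 3 interquartile ranges. Correlations were computed in Python 3.11.15 with scipy 1.17.1. The fit was tested on simulated data with normal noise, independent between genes, and no livers that stand apart. It recovered 68% of 200 genes changed by 0.25 log2, 89% at 0.5 and 99% at 1. The livers of this series differ from that setting, so these shares may not hold for them.

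The sets, lists and stretches were chosen with earlier results of these data known. Named were the 15 measured neighbours on each side, called genes, the 10 genes of largest standardised difference, called list members, the core ganglioside genes and 3 other clustered genes; all others named were chosen after their values were seen. List genes without a probe set of their own were not analysed here.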

Additional observations from a re-analysis of the deposited data

How the results depend on the processing

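The comparison was repeated under 14 other settings and without each of the 50 livers in turn. Tafa2 was tested in 63 of these and called in 62, with differences from −0.617 to −0.509 log2 under the other settings that kept the log2 scale (limma adjusted p up to 0.00278) and from −0.560 to −0.515 without single livers (limma adjusted p up to 0.00117). The number of genes called, and of chromosome 10 genes called, was 0 among genes with a mean level over the 3.65 median, where Tafa2 was not tested, and 0 on normal scores of ranks, where the cause was not tested. Without single livers both numbers ran from 1 to 2, with Ccdc59 added without animal 267. No sphingolipid gene, no gene within 25 places of B4galnt1 and no member of another list was called under any setting run. The number of genes at an unadjusted p under 0.05, 1438 over all livers, was 901 among genes over the 3.65 median (fewer genes tested), 2481 over every probe set (more features tested), 2696 without the 2 livers within 0.5 log2 of the boundary, and 1208 to 2490 without single livers. The cause of the last was not tested beyond animal 235, whose removal alone gave 2490. A boundary at the widest interval gave the same sets. With the midpoint taken from medians, 8 livers in place of 7 lay on the other side for Tafa2. No paired analysis was possible because the labels give 1 group. The alternatives counted at an unadjusted p were chosen after seeing the data.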

Other observations

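Among genes outside the lists, 6 differed by more than 1 log2 in mean, all with higher means in low livers and none called by limma. They were chosen after their values were seen. Hamp2, a hepcidin paralog, averaged 8.61 in low livers and 7.17 in high livers, a difference of 1.44 (limma adjusted p = 0.753). The sulphotransferases Sult2a1, Sult2a3 and Sult2a6 had differences of 1.26, 1.31 and 1.30, and C730036E19Rik 1.28. The other was the pseudogene Mup-ps12. Plin2, which coats lipid droplets, ran from 8.73 over a median of 9.33 to 9.78 in low livers, against 7.64, 8.85 and 9.67 in high livers, with a difference of 0.45 ± 0.11 (SE, limma adjusted p = 0.455). Its sign was positive in all 4 stretches of animal numbers, at 0.45, 0.84, 0.26 and 0.32. Plin2 was named after its values were seen, so this is no separate test. Ddit4, a stress-induced inhibitor of mTORC1 on chromosome 10, differed by −0.93 ± 0.27 (SE, limma adjusted p = 0.611). Erbb3, a partner receptor of the Neu product, lies 99 places after B4galnt1 and differed by 0.30 ± 0.14 (SE, limma adjusted p = 0.760). Its difference within stretches was 1.03, 0.43, −0.13 and 0.01.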
